A study of Mus musculus with 19 samples.

Results

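The genes described here are 9 C-type lectin receptors of myeloid cells, Clec12a, Clec7a, Clec4n, Clec10a, Mgl2, Cd209a, Clec4a1, Clec4a2 and Clec4a3. They were chosen by name, with earlier results of these data known. All 9 were among the 13783 genes of a table of normalised read counts from cells sorted out of mouse brain. A second table, of whole hippocampus, lists 15634 genes, and 7 of the receptors, all but Clec4n and Cd209a, were analysed there. The mice were recipients of a bone marrow transplant in a model of chronic graft-versus-host disease (GVHD), in which T cells of the graft attack the host. All recipients, controls included, had split-dose total-body irradiation of 1100 cGy and received 5000000 T-cell-depleted (TCD) marrow cells. The GVHD groups also received 500000 splenic T cells, and the TCD groups received 0. The sorted cells, taken on day 70, formed 3 groups. They were 6 libraries of bone marrow-derived macrophages from the donor in GVHD mice, called donor libraries here, 4 libraries of microglia from the host in GVHD mice (GVHD host) and 3 of microglia from the host in TCD mice (TCD host). Hippocampus, taken on day 80, gave 3 GVHD and 3 TCD libraries. Strain, sex, age and the marker that separated donor from host cells are not given in the sources used here. Nothing says that the libraries of a group came from separate animals, so p-values measure only the spread between these libraries, which may be technical. Donor macrophages and host microglia differ in cell type, in genotype and in exposure to the irradiation, and these cannot be told apart.

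C-type lectin receptors are membrane proteins whose extracellular lectin fold binds sugars or other ligands on microbes and on damaged or dying cells. Activating members signal through the kinase Syk and the adaptor Card9, either by a motif of their own or through the paired chain Fcer1g. Inhibitory members carry a tail motif that recruits phosphatases such as Ptpn6. In brain, Clec7a is known as a gene of disease-associated microglia, whereas Clec10a, Mgl2 and Cd209a are best known from monocyte-derived macrophages and dendritic cells.

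Of the activating members, Clec7a encodes Dectin-1, the beta-glucan receptor, and Clec4n encodes Dectin-2, which binds mannose-rich glycans and pairs with Fcer1g. Of the inhibitory members, Clec12a encodes a receptor for uric acid crystals and Clec4a2 encodes DCIR, the dendritic cell immunoreceptor. Clec4a1 and Clec4a3 are close relatives of Clec4a2. Clec10a and Mgl2 encode the macrophage galactose-type lectins, which bind galactose and N-acetylgalactosamine, and Cd209a encodes a relative of human DC-SIGN.

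Coordinates are on GRCm38, with gene models from GENCODE. Mgl2 (ENSMUSG00000040950, chr11:70130329-70137550, plus strand) and Clec10a (ENSMUSG00000000318, chr11:70156197-70170834, plus strand) are neighbours 18.6 kb apart. Clec4a1 (ENSMUSG00000049037, chr6:122921848-122934619), Clec4a3 (ENSMUSG00000043832, chr6:122952515-122969875), Clec4a2 (ENSMUSG00000030148, chr6:123106428-123143999) and Clec4n (ENSMUSG00000023349, chr6:123229843-123247021) follow one another on the plus strand, with gaps of 17.9, 136.6 and 85.8 kb. Clec12a (ENSMUSG00000053063, chr6:129342691-129365303, plus strand) and Clec7a (ENSMUSG00000079293, chr6:129461591-129472779, minus strand) lie on the same chromosome, 96.3 kb from each other and 6095.7 kb beyond Clec4n. Cd209a (ENSMUSG00000031494, chr8:3743397-3748984, minus strand) stands alone.

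Promoters of 5 of these genes are shown because 4 of them were the members with large donor-to-host differences that had a RefSeq promoter and a match to a myeloid factor's motif, and the fifth, Clec4a2, was close to even across the groups. Each runs from 250 bases before to 50 bases after the RefSeq start on GRCm38.p6, 5′ to 3′ on the strand of the gene. Capitals mark matches, on either strand, to the core motif of PU.1 (GAGGAA), a factor of the myeloid lineage, and to a C/EBP motif (TTGCNNAA). The regions are chr6:129349994-129350293 for Clec12a, chr6:129472730-129473029 for Clec7a, chr11:70130107-70130406 for Mgl2, chr6:122921598-122921897 for Clec4a1 and chr6:123122440-123122739 for Clec4a2. The RefSeq starts of Clec12a and Clec4a2 lie inside the GENCODE span of each gene.
Clec12a: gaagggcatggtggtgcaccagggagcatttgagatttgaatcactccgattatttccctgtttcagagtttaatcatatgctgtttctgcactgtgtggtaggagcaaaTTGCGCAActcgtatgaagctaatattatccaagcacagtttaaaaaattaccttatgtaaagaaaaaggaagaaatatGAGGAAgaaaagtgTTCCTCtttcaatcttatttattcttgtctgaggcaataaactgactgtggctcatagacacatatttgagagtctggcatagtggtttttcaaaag
Clec7a: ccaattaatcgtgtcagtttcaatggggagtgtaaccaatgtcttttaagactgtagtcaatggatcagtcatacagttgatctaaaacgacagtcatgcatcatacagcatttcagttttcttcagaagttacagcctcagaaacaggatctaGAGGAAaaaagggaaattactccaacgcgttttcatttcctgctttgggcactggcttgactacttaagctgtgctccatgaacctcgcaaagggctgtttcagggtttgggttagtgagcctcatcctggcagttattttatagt
Mgl2: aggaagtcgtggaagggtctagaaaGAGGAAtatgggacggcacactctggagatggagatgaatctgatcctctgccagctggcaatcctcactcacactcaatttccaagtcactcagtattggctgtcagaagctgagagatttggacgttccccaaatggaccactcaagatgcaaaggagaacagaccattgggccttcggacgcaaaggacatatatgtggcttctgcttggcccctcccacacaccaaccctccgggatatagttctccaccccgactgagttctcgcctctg
Clec4a1: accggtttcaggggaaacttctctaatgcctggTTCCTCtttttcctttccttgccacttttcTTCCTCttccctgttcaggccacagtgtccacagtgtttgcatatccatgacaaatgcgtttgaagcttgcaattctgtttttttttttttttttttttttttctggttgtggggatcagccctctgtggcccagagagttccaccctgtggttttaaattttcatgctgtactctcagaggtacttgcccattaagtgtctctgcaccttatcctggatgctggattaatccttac
Clec4a2: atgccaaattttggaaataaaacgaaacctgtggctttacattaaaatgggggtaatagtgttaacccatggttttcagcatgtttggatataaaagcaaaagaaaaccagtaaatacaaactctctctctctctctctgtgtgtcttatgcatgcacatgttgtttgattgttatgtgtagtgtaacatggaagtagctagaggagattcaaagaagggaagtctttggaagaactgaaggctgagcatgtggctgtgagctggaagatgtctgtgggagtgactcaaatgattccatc

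Promoters were found for 7 of the 9 members, all but Clec4n and Clec10a. The PU.1 core stood at positions -61 and -47 in Clec12a, -217 and -187 in Clec4a1, -96 in Clec7a and -225 in Mgl2, counted from the start. It was also at -50 of the second RefSeq start of Clec4a3, and it had no match in the windows of Clec4a2 and Cd209a. Of 32851 promoters of this length, 28.3% held this core. The C/EBP motif was matched in Clec12a alone, at -140, and in 10.8% of all promoters. Of the other motifs searched on both strands, the AP-1 motif TGANTCA was matched in Clec12a and Clec4a2 (7.81% of promoters). The letters TATAAA were matched at 42 from the first RefSeq start of Clec7a, -184 in Cd209a and -161 in Clec4a2 (13.6% of promoters). In Clec7a and Cd209a the match was on the strand opposite to the gene, so these matches are not called TATA boxes here. These matches describe letters in the windows and are not evidence of binding.

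Mgl2 and Clec10a share long identical stretches, which bears on how their reads were counted. The longest identical coding run spans coding bases 547 to 729 of 999 in Mgl2 and 388 to 570 of 644 in the Clec10a transcript with which the run was found. It is given here because reads that fall inside it cannot be assigned to either gene by sequence.
Mgl2 and Clec10a: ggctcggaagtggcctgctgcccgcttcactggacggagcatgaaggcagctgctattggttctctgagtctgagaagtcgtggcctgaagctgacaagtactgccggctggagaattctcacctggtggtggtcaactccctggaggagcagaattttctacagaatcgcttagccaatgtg
Of the 50-base windows of Mgl2 transcripts, 12.2% occurred in Clec10a, and 8.49% of those of Clec10a occurred in Mgl2. For Clec4a2, 6.69% of windows occurred in another gene, with 3.85% in Clec4a4. The share was 0.686% for Clec4n, 0.402% for Clec12a and 0 for the remaining 4 members. The separate values of Mgl2 and Clec10a are therefore less certain than those of the other members.

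The sorted libraries held an estimated 7901523 to 35844769 reads and the hippocampal libraries 16673616 to 18546935. All 10 resident microglia markers were detected in the sorted table. Their summed value was 12738 to 18528 in donor libraries, 44003 to 53158 in GVHD host and 51109 to 64209 in TCD host libraries, so the microglia label held, while donor cells were not at 0 for these genes. The summed value of 10 markers of brain-engrafted macrophages ran the other way, with 125220 to 152070, 7223 to 18667 and 2609 to 5039 in the same order. All such sums add unscaled values, so the most abundant genes of a list weigh most. TCD host 1 carries "Syn" in its description where the other TCD host libraries carry TCD, the meaning is not stated, and it is the only TCD host library with the lower of the 2 API numbers in its title. In donor 1, donor 5 and TCD host 1, values rose with a gene's GC content by 0.290 to 0.355 log2 units per 10 percentage points, against -0.173 to 0.0201 in the other 10 sorted libraries. Results that rest on donor 5 or TCD host 1 are given with and without them.

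Donor macrophages were compared with host microglia of the same disease state, which asks how the receptor repertoire of engrafted marrow-derived cells differed from that of the resident cells. In limma, with Benjamini-Hochberg adjustment over 13086 genes and a call at an adjusted p under 0.05, 8 of the 9 members were higher in donor cells and 0 were lower. Of all genes tested, 19.4% were called higher and 19.2% lower. The median difference over the 9 members was 4.26 on the log2(value + 1) scale, a scale that understates the change of low genes, against 0.044 over all genes. The members were chosen with earlier results of these data known, so the contrast with all genes is no independent support. In 7 of 9 members every donor library was above every GVHD host library, and 27.9% of all genes had groups that did not overlap in either direction. The members fell into sets by the size of the difference, with Clec12a, Mgl2, Clec10a, Clec4n, Cd209a and Clec4a1 over 4 log2 units, Clec7a at 2.49, and Clec4a3 and Clec4a2 under 1. All 9 members passed the filter on low values, which asked for 3 or more libraries at 1 or above, and each met it on the host libraries alone.

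**Figure D1:**
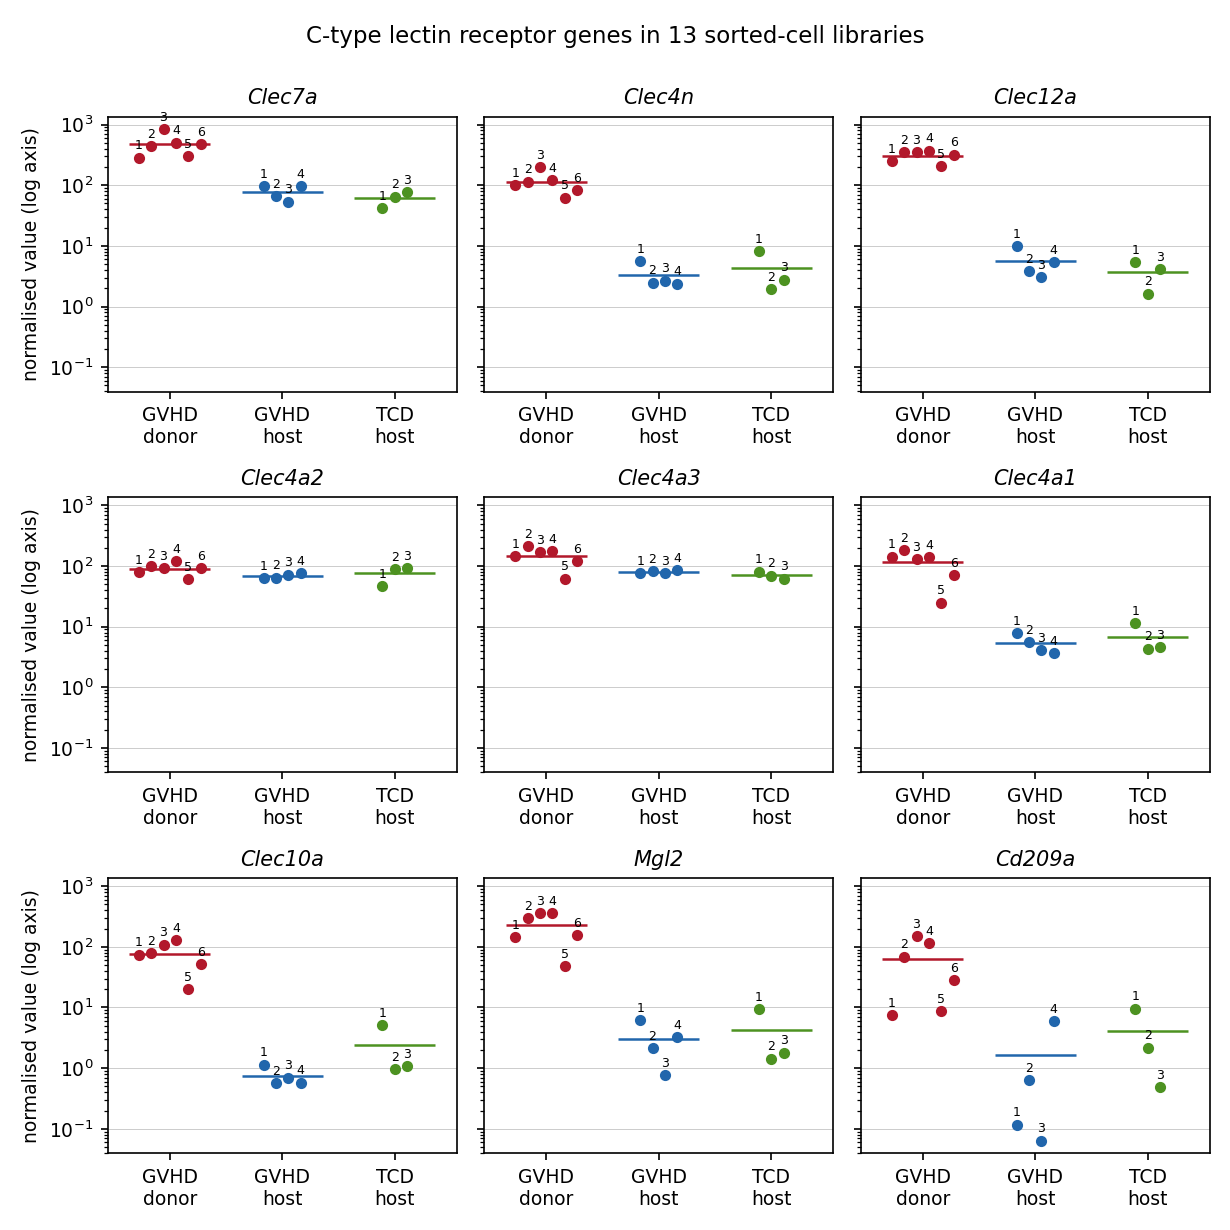
Normalised read count of the 9 receptors in the 13 sorted libraries, on a log axis, 1 panel a gene; each point is 1 library, numbered by its replicate, and the line is the group mean. Clec4a2 and Clec4a3 lie within a few fold in all 3 groups, whereas donor libraries of Clec12a (208 to 373) stand far above GVHD host (3.06 to 9.99) and TCD host (1.63 to 5.45) libraries.

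The inhibitory receptor Clec12a had the most uniform donor level. Its normalised count was lowest at 208, with a median of 332 and a highest value of 373, in the 6 donor libraries, and it was 9.99, 3.79, 3.06 and 5.45 in GVHD host 1 to 4. In TCD host 1 to 3 it was 5.45, 1.63 and 4.11. Donor values lay within 1.79-fold of each other and no host library of either group came near them. Clec12a was higher in donor than in GVHD host cells by 5.67 ± 0.28 (log2, SE; limma adjusted p = 1.48e-08), with group means of 308 ± 65.9 (SD, n = 6) and 5.57 ± 3.11 (SD, n = 4).

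The activating receptor Clec7a was the member with the largest counts in donor cells and was also well detected in every host library. Its donor values had a lowest of 283, a median of 453 and a highest of 842. GVHD host 1 to 4 had 97.4, 66.6, 53.8 and 95.9, and TCD host 1 to 3 had 42.0, 64.8 and 76.4. The groups of donor and host libraries did not overlap, and the 2 host groups did. The difference between donor and GVHD host cells was 2.49 ± 0.28 (limma adjusted p = 1.52e-05), from means of 473 ± 202 (SD, n = 6) and 78.4 ± 21.7 (SD, n = 4).

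The other activating receptor, Clec4n, was low in host cells. Its donor values ran from 62.6 through a median of 107 to 196.999, against 5.66, 2.46, 2.68 and 2.38 in GVHD host 1 to 4 and 8.18, 1.93 and 2.78 in TCD host 1 to 3. All donor libraries were above all host libraries, and library 1 was the highest of each host group. The donor-to-GVHD host difference was 4.76 ± 0.30 (limma adjusted p = 1.02e-07).

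The galactose-type lectins Mgl2 and Clec10a were among the members with the widest spread between donor libraries. Mgl2 values were 145, 294, 355, 361, 47.5 and 155 in donor 1 to 6, with 6.12, 2.15, 0.765 and 3.28 in GVHD host 1 to 4 and 9.50, 1.43 and 1.81 in TCD host 1 to 3. Clec10a values were 74.6, 79.2, 109, 128, 20.0 and 51.9 in donor 1 to 6, with 1.14, 0.566, 0.701 and 0.580 in GVHD host libraries and 5.07, 0.957 and 1.09 in TCD host libraries. Both genes were lowest in donor 5 and highest in donor 4 among donor libraries, and both were highest in library 1 of each host group. Mgl2 was higher in donor than GVHD host cells by 5.76 ± 0.57 (limma adjusted p = 4.58e-06) and Clec10a by 5.34 ± 0.43 (limma adjusted p = 7.62e-07). The Clec10a values of GVHD host libraries stand for an estimated 5.11 to 29.23 reads, so its fold change there is imprecise. Within a library, the ratio of Mgl2 to Clec10a per kb of exon was 2.68 to 5.14 in donor, 1.51 to 7.83 in GVHD host and 2.07 to 2.59 in TCD host libraries. The GVHD host range overlapped the other 2, and the donor range lay above the TCD host range.

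Cd209a, a gene used to mark monocyte-derived dendritic cells, was the most uneven member. It had 7.56, 68.5, 151, 115, 8.74 and 28.5 in donor 1 to 6, a range of 20.0-fold. GVHD host 1 to 4 had 0.117, 0.632, 0.0637 and 5.90, and TCD host 1 to 3 had 9.56, 2.17 and 0.483. The lowest donor value was above the GVHD host values but below that of TCD host 1. Cd209a was higher in donor than GVHD host cells by 4.26 ± 0.91 (limma adjusted p = 0.00232), the largest standard error of the 9 members. Its GVHD host values stand for an estimated 1 to 52 reads.

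The 3 genes of the DCIR family differed from one another. Clec4a1 had 142, 182, 130.1, 139, 24.9 and 71.1 in donor 1 to 6, 7.80, 5.63, 4.08 and 3.63 in GVHD host and 11.3, 4.35 and 4.59 in TCD host libraries. No donor library overlapped a host library, and the donor-to-GVHD host difference was 4.08 ± 0.43 (limma adjusted p = 8.57e-06). Clec4a3 had 147, 210.3, 168, 175, 62.2 and 119 in donor libraries, 75.6, 82.2, 76.4 and 85.6 in GVHD host and 81.2, 69.0 and 61.9 in TCD host libraries. Donor 5 was below all 4 GVHD host libraries, and the other 5 donor libraries were above them.

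The Clec4a3 difference was small, 0.78 ± 0.27 (limma adjusted p = 0.0335). Fitted on the donor and GVHD host libraries alone, its adjusted p was 0.0555, and adding the API and description numbers as a replicate block to that fit gave 0.54 (adjusted p = 0.0961). With the block and a correction for GC content together it was 0.65 (adjusted p = 0.0440). The call was also lost without donor 1, 2, 3 or 4 or without any 1 GVHD host library (adjusted p of 0.0577 to 0.0922). Without donor 5 it was 1.00 (adjusted p = 0.000153). Clec4a2, the inhibitory receptor of the group, had 79.0, 99.7, 93.2, 119.9, 61.1 and 91.7 in donor libraries, 62.8, 64.6, 72.1 and 75.9 in GVHD host and 46.2, 89.7 and 91.7 in TCD host libraries. The donor and GVHD host groups overlapped through donor 5 alone. Their difference was 0.33 ± 0.18 (limma adjusted p = 0.157) with a 95% interval of -0.05 to 0.72. Without donor 5 it was 0.45 (adjusted p = 0.0163) and Clec4a2 was called. With a correction for GC content it was also called, at 0.43 (adjusted p = 0.0115), but not with that correction and the replicate block together (0.40, adjusted p = 0.0526).

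**Figure D2:**
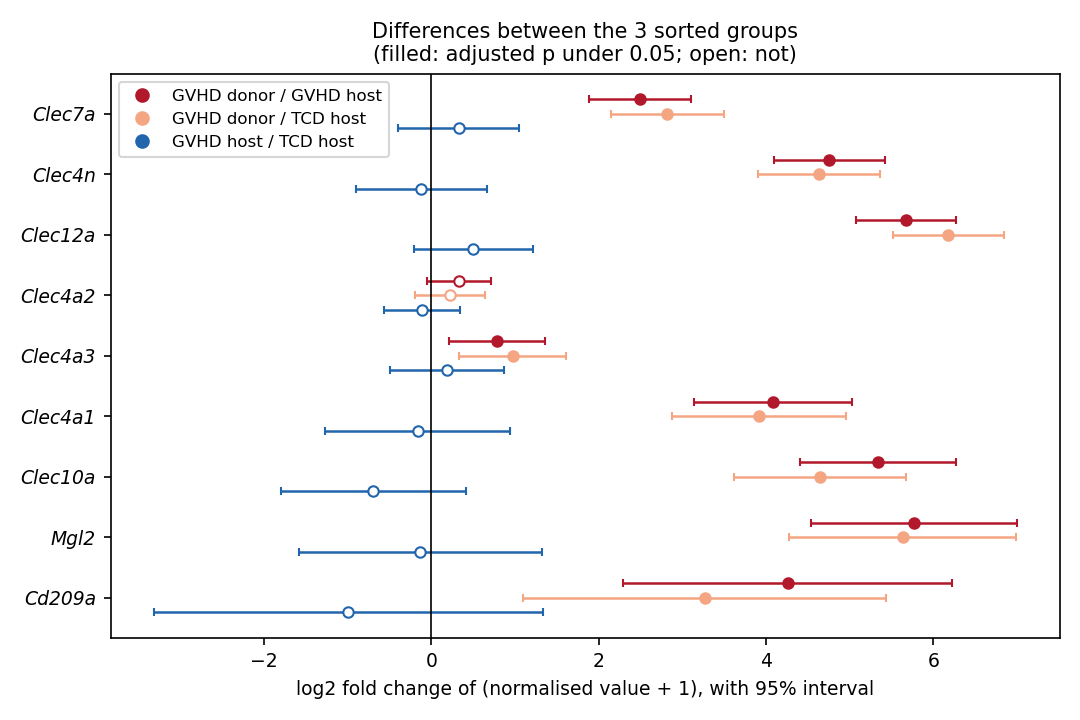
Difference of each receptor on the log2(value + 1) scale in the 3 comparisons of sorted groups, with its 95% interval; filled points are called at an adjusted p under 0.05. Clec12a lies near 6 in both comparisons with donor cells (5.67 and 6.18), Clec4a2 lies near 0 in all 3, and no receptor is called between the host groups.

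The ratio of family members within a library showed the same unevenness without any scaling between libraries. Clec4a1 to Clec4a2 per kb was 0.766 to 3.43 in donor, 0.0898 to 0.233 in GVHD host and 0.0910 to 0.459 in TCD host libraries, with no overlap between donor and host. Clec4a3 to Clec4a2 was 2.24 to 4.65, 2.34 to 2.81 and 1.49 to 3.88, and these ranges overlap. Clec7a to Clec12a was 2.41 to 5.09 in donor, 20.4 to 36.9 in GVHD host and 16.2 to 83.4 in TCD host libraries, so host cells held far more Clec7a per Clec12a than donor cells did.

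The 6 donor libraries did not carry the receptors in equal amounts. The summed value of the 9 members was 1226, 1838, 2392, 2034, 799 and 1388 in donor 1 to 6. Donor 5 was lowest in 7 of 9 members, all but Cd209a and Clec7a, where donor 1 was lowest. Relative to the median of the 6 donor libraries, donor 5 was at 0.180 for Cd209a, 0.185 for Clec4a1, 0.212 for Mgl2, 0.260 for Clec10a and 0.395 for Clec4a3. For Clec4n, Clec12a, Clec4a2 and Clec7a it was at 0.583 to 0.670, a smaller shortfall.

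**Figure D3:**
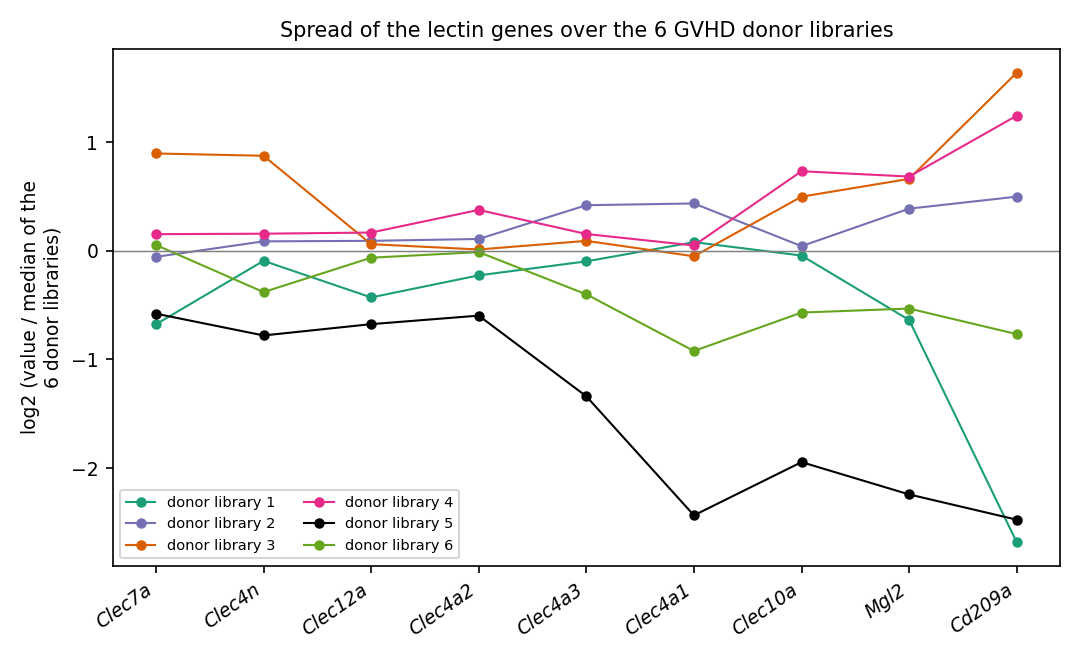
Log2 ratio of each donor library to the median of the 6 donor libraries, on the vertical axis, with the receptors along the horizontal axis. Each coloured line is 1 library, named in the legend. Cd209a is spread most (20.0-fold from lowest to highest) and Clec12a least (1.79-fold), and library 5 is the lowest point in 7 of 9 receptors.

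At the high end, donor 3 was the highest donor library in Cd209a (3.11 times the median), Clec4n (1.83) and Clec7a (1.86), donor 2 in Clec4a1 and Clec4a3, and donor 4 in the other 4 members. Monocyte and dendritic cell markers partly followed these levels, while other marker lists did not. The border-associated macrophage sum was 1690.5, 1696, 1487.7, 1906.2, 1516.7 and 1598.2 in donor 1 to 6, lowest in donor 3. The engrafted-macrophage, neutrophil and T cell sums were highest in donor 1. The summed value of 10 monocyte markers was 587, 1221, 1839, 766, 224 and 389 in donor 1 to 6, and that of Ccr2, the chemokine receptor of inflammatory monocytes, was 194, 566, 918, 434, 48.8 and 208. Donor 5 had the lowest monocyte sum and the lowest sum of 15 dendritic cell markers (256, against 308 to 770 in the others), and it had the highest microglia sum of the donor libraries (18528) and the most reads (35844769). Donor 3 had the highest sums for monocyte and dendritic cell markers. In bulk libraries, fewer cells of a type and less RNA per cell cannot be told apart, and the part of these markers in the receptor levels was not tested. Without donor 5, all 9 members were called higher in donor than in GVHD host cells. Of all genes, 2777 of 13024 were then called higher, against 2533 of 13086 with it. Donor 5 was singled out by its low receptor values, so this count is no independent support.

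Levels can be ordered between genes only per length, as the normalised count per kb of annotated exon. In donor cells the order was Clec7a with 179 ± 76.5 (SD, n = 6), Clec4a3 with 111 ± 38.7, Mgl2 with 108 ± 61.5, Clec4n with 79.5 ± 32.6 and Clec4a1 with 73.8 ± 36.5. Clec12a followed with 55.7 ± 11.9, Cd209a with 39.9 ± 37.5, Clec4a2 with 31.0 ± 6.75 and Clec10a with 26.6 ± 13.3. Every pair of neighbours in this order overlapped between libraries. The order depends on the length used, since per kb of the longest transcript Clec12a was at 95.2 and moved from rank 6 to rank 4, and Mgl2 (138) passed Clec4a3 (113).

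GVHD host cells had another order, led per kb by Clec4a3 with 60.2 ± 3.60 (SD, n = 4), which did not overlap Clec7a with 29.7 ± 8.22. Clec4a2 followed with 23.5 ± 2.11 and did not overlap the next gene, Clec4a1, with 3.39. Clec4n (2.32), Mgl2 (1.47), Cd209a (1.06) and Clec12a (1.01) overlapped as neighbours, and Clec10a was last with 0.258, below the range of Clec12a. TCD host cells were again led by Clec4a3 with 53.3 ± 7.35 (SD, n = 3), clear of Clec4a2 (25.9) and Clec7a (23.2), and all remaining members were at 4.33 per kb or less. In both host groups Clec4a3, Clec7a and Clec4a2 were above every other member with no overlap.

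The rest of the receptor family was examined as a list of 46 other C-type lectin genes, of which 30 were in the sorted table and 28 were tested. Between donor and GVHD host cells 17 of 28 were higher and 2 were lower, with a median difference of 1.47. Several of those higher were close to 0 in GVHD host cells, such as Clec9a (mean of 0.147) and Clec4d (0.148). The filter on low values can keep such genes through the donor libraries alone, so the count and the median are no fair measure of the whole list. By smallest p, the 6 named members were Cd93, Thbd, Mrc1, Klra2, Clec2i and Layn. Cd93, a receptor of myeloid and endothelial cells, was higher by 5.72 ± 0.29 (limma adjusted p = 1.61e-08), with means of 144 and 1.81. The mannose receptor Mrc1 was higher by 5.10 ± 0.32 (means of 826 and 26.7), Klra2 of the Ly49 family by 5.68 ± 0.37 (216 and 4.57), thrombomodulin, Thbd, by 4.01 ± 0.21 (18.8 and 0.267) and Clec2i, a ligand of Nkrp1 receptors, by 3.43 ± 0.24 (84.8 and 6.92). The hyaluronan receptor Layn was lower, by -2.67 ± 0.23, with means of 1.42 and 13.6. Mrc1 and Klra2 are also in the marker lists of border-associated and brain-engrafted macrophages.

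**Figure D4:**
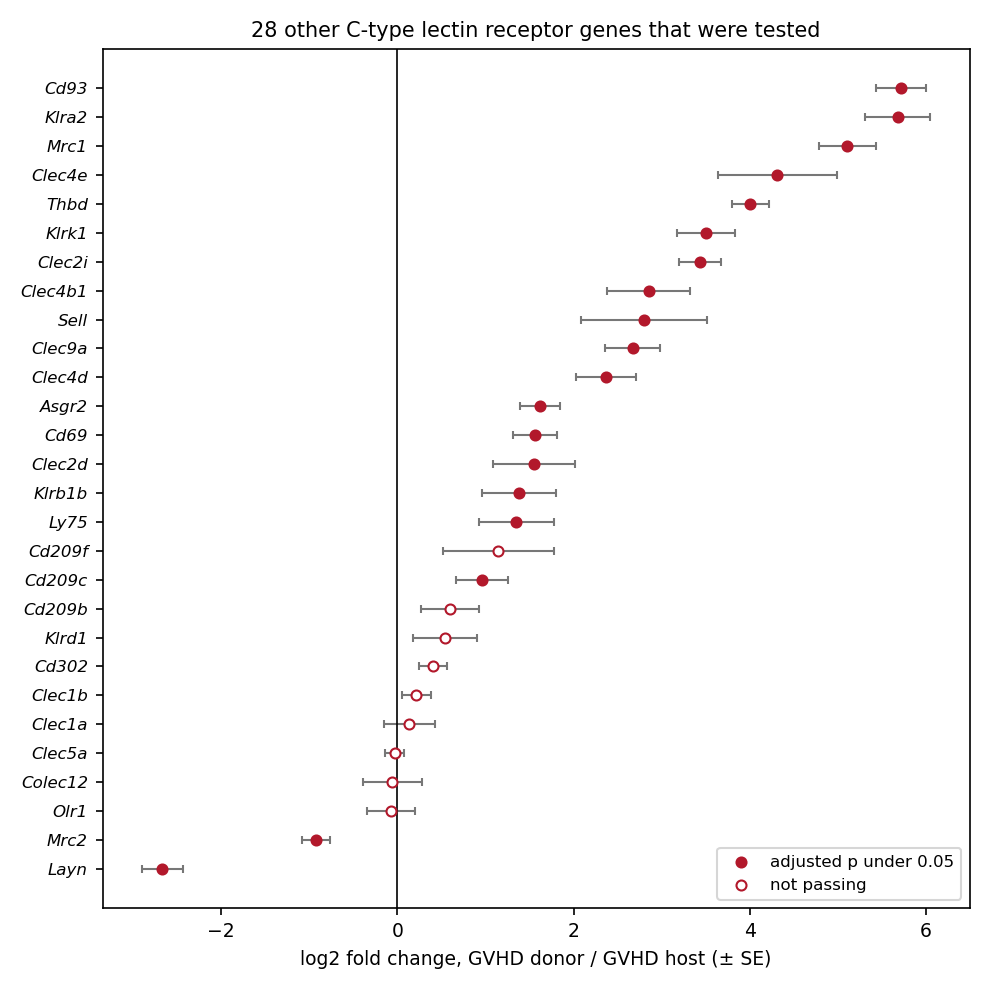
Difference between donor macrophages and GVHD host microglia, with its SE on the log2(value + 1) scale, for the 28 other C-type lectin genes tested; filled points are called at an adjusted p under 0.05. Of these, 17 lie above 0 and are called and 2, Layn and Mrc2, lie below 0 and are called. Genes close to 0 in host cells can have passed the filter through donor libraries alone.

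Some further members of the list are given for their closeness to the 9 receptors, chosen after their values were seen. Clec4e, or Mincle, which like Clec4n pairs with Fcer1g, was higher by 4.31 ± 0.68 (limma adjusted p = 0.000246), with means of 39.9 and 0.352, and its partner Clec4d by 2.36 ± 0.34 (limma adjusted p = 0.000122). The myeloid receptor Clec5a differed by -0.03 and was not called. Per kb, the donor level of Mrc1 was 129.7 ± 23.4 (SD, n = 6) and that of Klra2 114 ± 22.3. These lie within the range of the upper members.

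The signalling genes behind the receptors moved less than the receptors. Of 19 tested genes of activating adaptors and the Syk-Card9 route, 5 were higher and 1 was lower in donor than in GVHD host cells, with a median of 0.38. The shares over all genes to set beside this count and those of the further lists below are 19.4% higher and 19.2% lower. Among those with the smallest p were the exchange factor Vav3 (2.64 ± 0.33, limma adjusted p = 4.22e-05) and the Card9 partner Bcl10 (0.49 ± 0.09), both higher, and the kinase Lyn (-0.29 ± 0.08), lower. Vav3 was low, with means of 6.57 in donor and 0.111 in GVHD host cells, and can have passed the filter through donor libraries alone. The kinase Syk itself was higher by 0.60 (adjusted p = 0.0220). The chain Fcer1g had means of 1114 and 792 and a difference of 0.42 ± 0.16 (adjusted p = 0.0625), and Card9 differed by 0.80 (adjusted p = 0.277); neither passed the threshold. Syk, Fcer1g and Card9 were named after their values were seen.

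Of the 4 phosphatases that inhibitory receptors recruit, the lipid phosphatase Inpp5d was lower by -0.75 ± 0.10 (limma adjusted p = 9.45e-05) and Ptpn11 was higher by 0.39 ± 0.11 (limma adjusted p = 0.0139). Ptpn6 differed by 0.16 (adjusted p = 0.211) and Inppl1 by 0.94 ± 0.60 (adjusted p = 0.245). Of 18 tested cytokine and other output genes of the route, 6 were higher and 5 were lower, with a median of 0.30. Il10, an anti-inflammatory cytokine, was higher by 3.40 ± 0.28, the chemokine Cxcl2 by 3.84 ± 0.33 and Il1b by 2.15 ± 0.28, whereas Il6 was lower by -2.14 ± 0.25. The output genes thus went in both directions.

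Host ligands and partners of the receptors were higher in 7 and lower in 3 of 11 tested genes, with a median of 1.15. The galactose-binding lectin Lgals3 was higher by 3.97 ± 0.30 and the phosphatidylserine-binding protein Anxa5 by 2.37 ± 0.16. The integrin chain Itgam was lower by -1.62 ± 0.09 and the tetraspanin Cd37 by -1.54 ± 0.09. Of 11 transcription factors of myeloid lectin genes, 4 were higher and 0 were lower, namely Nr4a1 (1.59 ± 0.26), Klf4 (1.09 ± 0.25), Irf4 (0.86 ± 0.28) and Cebpb (0.56 ± 0.19). Among 14 genes of alternative activation, the state with which Clec10a and Mgl2 are linked, 6 were higher and 0 were lower, with a median of 1.62. They include Mrc1, Il10, Chil3 (4.65 ± 0.81) and Retnla (2.41 ± 0.52). The other 8 were not called. Mrc1, Il10 and Chil3 are also counted in other lists given here, so this count is not separate from theirs. Il10 and Retnla were close to 0 in GVHD host cells (means of 0.149 and 0.105), and the filter can keep such genes through donor libraries alone.

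Marker lists of other cell types moved with the receptors between donor and GVHD host cells. All 10 monocyte markers were higher, with summed values of 224 to 1839 in donor and 23.8 to 56.8 in GVHD host libraries. The named ones were Itgal (3.80), Fn1 (4.55), Ccr2 (4.06, means of 395 and 16.1) and Cd177 (4.14). Of 10 markers of border-associated macrophages, 8 were higher, with sums of 1488 to 1906 against 289.8 to 362. Of 15 dendritic cell markers, 8 were higher and 2 lower, with overlapping sums of 256 to 770 and 269 to 334. The dendritic cell genes Flt3 (means of 5.84 and 0.292) and Clec9a (6.82 and 0.147) were low in donor cells and close to 0 in host cells.

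All 10 markers of brain-engrafted macrophages were higher and 9 of 10 microglia markers were lower, P2ry12 by -3.56 ± 0.14. Neutrophil markers were higher in 6 and lower in 1 of 9, with overlapping sums of 173 to 901 and 385 to 435. T cell markers were higher in 1 of 11, with sums of 5.28 to 54.0 in donor and 9.53 to 43.2 in GVHD host libraries. Of 5 NK cell markers, 1 was lower, and of 3 B cell markers, 0 were called by limma. The part of monocyte, border-associated macrophage or dendritic cell content in the receptor differences was not tested.

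Against TCD host microglia, the same 6 donor libraries were compared with controls that had received no T cells. The comparison shares its donor libraries with the one above and is no independent repeat of it. Again 8 of 9 members were higher in donor cells and 0 lower, where 18.4% of all genes were called higher. The groups did not overlap in 6 of 9 members, against 29.5% of all genes. The median difference of the members was 3.92, and that over all genes was -0.0059. Of 28 other C-type lectin genes tested, 17 were higher and 2 lower, with a median of 2.14. The limit that the filter sets on this list, given above, holds here too. The signalling route had 5 higher and 1 lower of 19 genes, the phosphatases 0 higher and 1 lower of 4, the outputs 6 and 5 of 18, ligands and partners 7 and 2 of 11, the transcription factors 3 and 0 of 11, and alternative activation 5 and 0 of 14. Monocyte and engrafted-macrophage markers were higher in 10 of 10 each, border-associated markers in 6 of 10 and dendritic cell markers in 9 of 15, with 2 of the latter lower.

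In this comparison Clec12a differed by 6.18 ± 0.31 (limma adjusted p = 2.44e-08), Mgl2 by 5.63 ± 0.63, Clec10a by 4.65 ± 0.48 and Clec4n by 4.64 ± 0.34, beside 5.67, 5.76, 5.34 and 4.76 against GVHD host cells. Clec4a1 differed by 3.92 ± 0.48 and Clec7a by 2.82 ± 0.31 (limma adjusted p = 1.36e-05), beside 4.08 and 2.49. Cd209a differed by 3.27 ± 1.00 (limma adjusted p = 0.0215), and this call was lost without TCD host 2 (adjusted p = 0.0918) or TCD host 3 (adjusted p = 0.147), while without TCD host 1 it was 4.44 (adjusted p = 0.00438). Clec4a3 differed by 0.97 ± 0.29 (limma adjusted p = 0.0199), a call lost without TCD host 2 (adjusted p = 0.0664) or TCD host 3 (adjusted p = 0.0896). Clec4a2 differed by 0.22 ± 0.20 (adjusted p = 0.420), with a 95% interval of -0.20 to 0.65. Without TCD host 1 the count stayed at 8 members higher.

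In the deposited table every donor library had a larger total than every host library, of which the highest was 961740. When the libraries were rescaled to equal totals, the median over all genes moved to -0.12 for donor against GVHD host cells and to -0.15 for donor against TCD host cells. The calls over all genes then split into 1830 higher and 3640 lower, against 2533 and 2519 with the deposited scaling, and into 1870 and 3401, against 2408 and 2437, in the second comparison. The members called higher were 7 of 9 and 8 of 9 under that scaling, since Clec4a3 against GVHD host cells was 0.61 (adjusted p = 0.0850).

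GVHD was compared with TCD in host microglia to see whether the disease changed the receptors in resident cells. With limma 0 of 9 members were called, 0 had an unadjusted p under 0.05, and 0 had groups that did not overlap. Over all genes 0.107% were called in either direction and 6.55% did not overlap. The median member difference was -0.12, against -0.03 over all genes, and adjusted p ran from 0.831 to 0.979. The 95% intervals differed much in width between members, so the data limit a difference better for some than for others.

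The interval was narrowest for Clec4a2 (-0.57 to 0.34). That of Clec4a3 (-0.49 to 0.87) was about as wide as those of Clec12a and Clec7a. Clec4a2 and Clec4a3 were well detected in every host library. The model took the spread from all sorted libraries, so the donor libraries also bear on these widths. Clec12a differed by 0.50 (-0.21 to 1.21) and Clec7a by 0.33 (-0.40 to 1.05). For Clec4n the interval was -0.90 to 0.66, for Clec4a1 -1.28 to 0.94 and for Clec10a -1.80 to 0.41. For Mgl2 (-1.59 to 1.32) and Cd209a (-3.32 to 1.33) a severalfold difference in either direction lies within the interval. Of 28 other C-type lectin genes 0 were called by limma, with the smallest p for the collagen receptor Mrc2 (-0.84, adjusted p = 0.141) and the activation marker Cd69 (1.08, adjusted p = 0.272). In the signalling, ligand, transcription factor and alternative activation lists 0 genes were called either.

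Library 1 of each host group was the highest of its group in most members. GVHD host 1 was the highest in 6 of 9, though not in Cd209a, where GVHD host 4 was, and its engrafted-macrophage marker sum was 18667 against 7223 to 8936 in the other 3. TCD host 1 was the highest of its group in 7 of 9 members and the lowest in Clec4a2 and Clec7a. Its border-associated marker sum was 860 against 296 and 338, with Mrc1 at 108 against 15.9 and 18.5. Over the groups, the engrafted-macrophage sum was higher in every GVHD host library (7223 to 18667) than in any TCD host library (2609 to 5039). Of its 10 markers, only Cd74, the invariant chain of MHC class II, was called (2.82, limma adjusted p = 0.00873), and 9 were not. Abundant genes weigh most in this sum, with GVHD host means of 3851 for Apoe and 639 for Lyz2, against 3.05 for Tlr8 and 4.57 for Klra2. The part of engrafted or border-associated macrophages in the host values was not tested. Without TCD host 1, Clec4n, Mgl2 and Cd209a turned from lower to higher in GVHD host cells (0.21, 0.37 and 0.28), with 0 of 9 members called.

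In whole hippocampus the receptors were close to the limit of detection. Of 7 members in the table, 4 passed the same filter on low values, Clec12a, Clec7a, Clec10a and Clec4a3. By limma, 0 of these 4 were called and 2 had an unadjusted p under 0.05. Over all 14404 genes tested, 17.0% had an unadjusted p under 0.05, 0.479% were called in either direction and 24.0% had groups that did not overlap. Since the filter keeps low genes through the group where they are higher, the 4 are not a fair sample of the members.

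Of the 7 members, 1 had groups that did not overlap, Clec4a3, against 24.0% of all genes tested. It had 1.08, 1.14 and 1.23 in GVHD 1 to 3 and 0.349, 0.238 and 0.428 in TCD 1 to 3. These values stand for an estimated 20 to 21 and 4 to 7 reads. Only its GVHD libraries reached the filter value of 1, so Clec4a3 was tested because it was high there. Its difference was 0.69 ± 0.19 (limma adjusted p = 0.137). Clec7a had 3.24, 6.02 and 1.17 in GVHD and 1.51, 1.54 and 0.245 in TCD libraries, overlapping through GVHD 3. It differed by 1.01 ± 0.44 (limma adjusted p = 0.289).

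Clec12a had 1.40, 5.34 and 1.47 in GVHD and 2.50, 0.534 and 0.306 in TCD libraries, a difference of 0.81 ± 0.46 (adjusted p = 0.419 in limma). Clec10a had 0.702, 1.25 and 1.41 against 0.698, 0.653 and 1.10, a difference of 0.21 ± 0.22 (adjusted p = 0.664 in limma). Mgl2, Clec4a1 and Clec4a2 did not pass the filter, with values of 0.235 to 0.965, 0.411 to 1.02 and 0.378 to 1.08 in GVHD and 0.291 to 0.475, 0.122 to 0.534 and 0.756 to 1.01 in TCD libraries. GVHD 2 was the highest of the 6 libraries in 5 of 7 members. Per kb, Clec7a was the highest member in both groups, with means of 1.32 in GVHD and 0.417 in TCD, and Clec4a3 was next in GVHD with 0.866.

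**Figure D5:**
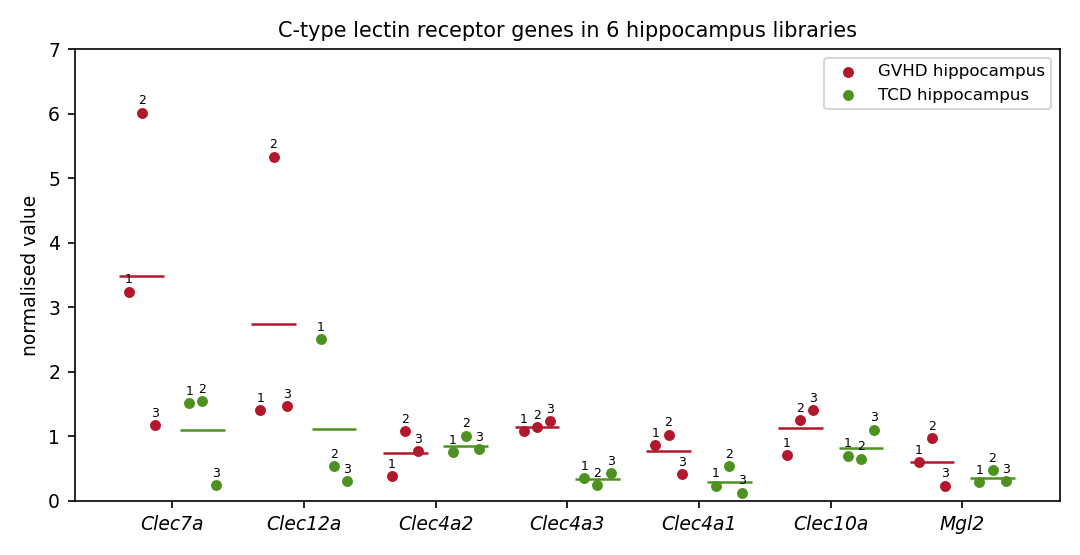
Normalised read count of the 7 receptors of the hippocampus table in 3 GVHD and 3 TCD libraries, on a linear axis from 0; points are libraries numbered by replicate and the lines are group means. Clec4a3 is the only receptor whose groups do not overlap (1.08 to 1.23 against 0.238 to 0.428), where 24.0% of all genes tested do not. The highest value of all is 6.02, Clec7a in GVHD 2.

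Markers of choroid plexus, a tissue next to the hippocampus, moved with the hippocampal groups. The summed value of 10 choroid plexus markers was 1066 to 3735 in GVHD and 29.9 to 109 in TCD libraries, and 9 of 10 were called higher in GVHD. Choroid plexus holds macrophages of its own, and the part of this tissue in the receptor values was not tested. Summed microglia markers were 226 to 308 in GVHD and 274 to 330 in TCD libraries, and summed engrafted-macrophage markers were 1780 to 3351 and 1484 to 2126, both overlapping. These sums add unscaled values, so abundant genes weigh most. Whole tissue does not show which cells the transcripts came from, so the second sum is no measure of engrafted cells. The 3 T cell markers in the table summed to 3.46 to 5.94 in GVHD and 1.71 to 2.85 in TCD libraries, and the 2 NK cell markers to 1.94 to 4.63 and 0 to 1.01, neither overlapping. Their part in the receptor values was not tested either, and 0 genes of these lists were called by limma. Of 13 other C-type lectin genes tested there, 0 were called by limma, with a median of 0.26 and the smallest p for Clec14a (0.38, adjusted p = 0.266). In the signalling, ligand, transcription factor and alternative activation lists 0 genes were called in hippocampus.

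Finally, the genes with the most similar profile over the 13 sorted libraries were sought for each member among 8442 genes with a mean of at least 10, by the mean absolute difference between centred log2 profiles. The 13 libraries hold the 3 groups, so likeness takes in the group differences above. Nearest to Clec12a were Tlr8 (0.245), Ms4a7 (0.256) and Sirpb1b (0.270), and to Clec4n Tmem51 (0.250), Nlrc4 (0.301) and Lyz2 (0.323). Nearest to Clec10a were Pf4 (0.342), Clec4n (0.366) and Cd38 (0.440), and to Mgl2 Mndal (0.483), Clec10a (0.489) and Clec12a (0.490). For Clec4a1 they were Pltp (0.340), Lyz1 (0.347) and Cd300ld (0.348), and for Clec7a Afdn (0.304), Dnase1l1 (0.308) and Sh3bgrl (0.313).

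Cd209a was nearest to Chil3 (0.695), Cd177 (0.704) and Anxa1 (0.714), of which Chil3 and Cd177 are in the monocyte marker list. These distances were the largest of the 9 members, and Cd209a was also the most uneven of them. Clec4a2 and Clec4a3, the members that differed least between donor and host cells, had the smallest distances. Nearest were Rad50 (0.114), Pkn2 (0.118) and Hipk3 (0.122) for the former and Ctdsp2 (0.172), Klf13 (0.174) and Serpinb6a (0.186) for the latter. The distance is not scaled to the spread of a gene. An even profile therefore lies near many genes and an uneven one far from most, so distances do not rank closeness between members.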

How the data were processed

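RNA was sequenced from 13 libraries of sorted brain cells and 6 of hippocampus. The values deposited are a signal in the form of normalised counts, which the authors had scaled by a method not given in the sources used here. The lowest library total of the sorted table was 890564, and every donor total there was above every host total. Per the submitters' processing notes, cutadapt 1.9, STAR 2.5.2a, RSEM 1.2.30 and GRCm38 were used, with no roles given, and per the labels the libraries were stranded. Of the values, 83.0% to 83.9% in hippocampal and 69.2% to 73.9% in sorted libraries were whole multiples of a smallest step, within a tolerance of 0.02. That step was taken as 1 read to estimate depth. Whole counts could not be recovered, so no count test was run. Estimated reads per value set the precision of low values and cover counting error only.

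Symbols, positions and exon lengths came from GENCODE on GRCm38, with 213 and 192 identifiers unmatched in the sorted and hippocampus tables. Promoters came from RefSeq on GRCm38.p6. Values were tested as log2(value + 1) by the two-sided moderated test of limma 3.58.1 (R 4.3.3), using its mean-variance trend. Genes entered with 3 or more libraries at 1 or above, which left 13086 in sorted cells and 14404 in hippocampus. Adjusted p-values are Benjamini-Hochberg over all of these genes, with calls under 0.05. Sorted cells were fitted in 1 model with a covariate for which of 2 API numbers the title carries. The hippocampus table, scaled separately, was fitted on its own. Tables and figures were made with Python 3.11.15, numpy 2.4.6 and pandas 2.3.3. The scripts were tested on simulated data.

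The members and lists were chosen with earlier results of these data known. All 9 members are described, and from each other list up to 4 tested genes with the smallest p, or 6 for other C-type lectin genes. One gene that this rule names is not reported here. Further genes are marked as chosen after their values were seen.

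Samples were grouped by title. Pairing was checked as the correlation of deviations from the group means. By API and description number, 4 donor and GVHD host pairs had 0.166 to 0.394, and by title number 3 donor and TCD host pairs had 0.308 to 0.585. Libraries with unlike numbers reached similar values, 0.404 for donor 4 and GVHD host 2 and 0.532 for donor 2 and TCD host 3. Donor and TCD host libraries come from GVHD and TCD mice and cannot share an animal. The check therefore cannot show which libraries do. The title numbers of donor and GVHD host (-0.02 to 0.39), of GVHD and TCD host (-0.02 to 0.22) and of the hippocampal libraries (-0.18 to -0.04) included values below 0.

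Alternatives covered the pseudocount, filter, scaling, trend, covariate, replicate blocks, GC correction (planned for hippocampus), gene length and leaving out each library. Added after the data were seen were leaving out donor 5 and TCD host 1 together and, for sorted cells, the GC correction alone and with the replicate block.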

Additional observations from a re-analysis of the deposited data

Results flagged for a closer look

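Among 18 sets of 4 to 6 values examined, 2 had a library far from the others of its group, where chance alone is set to flag about 1 in 20. Clec4n was 5.657 in GVHD host 1, and the next highest of the 4 GVHD host libraries had 2.677. The gap to the nearest library was 0.910 of the group's range, above Dixon's critical value for 4 samples. Cd209a was 5.90 in GVHD host 4 against 0.632 in the next library, a gap of 0.903 of the range. GVHD host 1 also had the highest sum of engrafted-macrophage markers of its group, 18667, a sum in which abundant genes weigh most. The part of such cells in its Clec4n value was not tested.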

How the results depend on the processing

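Between donor and GVHD host cells 8 members were called higher, 7 to 9 over 29 alternatives, and against TCD host cells 8, or 6 to 8 over 27; 0 were called lower in any of them. Between the host groups and in hippocampus limma called 0 members under 27 and 16 alternatives, and a filter of 5 left no hippocampal member to test. For donor against GVHD host cells 7 members were called in 30 of 30 settings, with ranges of 4.92 to 5.97 for Clec12a, 2.29 to 2.77 for Clec7a, 3.79 to 5.13 for Clec4n, 3.68 to 6.42 for Clec10a, 4.64 to 6.29 for Mgl2, 2.77 to 5.79 for Cd209a and 3.40 to 4.61 for Clec4a1. Clec4a3 was called in 17 of 30 (0.54 to 1.11), and it was lost, besides the cases above, after quantile normalisation (adjusted p = 0.0528), with libraries of the higher API number only (0.107). Against TCD host cells Clec4a3 was lost with libraries of the higher API number only (adjusted p = 0.0513). With the API and description numbers as a replicate block over the donor and GVHD host libraries no call but that of Clec4a3 changed. GC correction, chosen for sorted cells after seeing the data, changed only the Clec4a2 call against GVHD host cells. With the title numbers as a block Clec4a2 was called against GVHD host cells (0.49, adjusted p = 0.0374), and no call changed against TCD host cells or in hippocampus. Without donor 5 and TCD host 1 together Clec4a2 was 0.46 (adjusted p = 0.00237).

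Directions that turned were all between the host groups, where no member was called, and their cause was not tested. Leaving out 1 library at a time gave -0.0135 (without GVHD host 1) to 0.5184 for Clec7a, -0.3648 to 0.2083 for Clec4n, -0.4022 to 0.3661 for Mgl2 and -1.8445 to 0.2804 for Cd209a. Clec7a was -0.0065 with libraries of the higher API number only. Mgl2 was 0.1395 without GVHD host 3. The highest values of Clec4n, Mgl2 and Cd209a were those without TCD host 1, and with libraries of the higher API number only they were 0.0755, 0.1377 and 0.0771. Without TCD host 1 and donor 5 together they were 0.2303, 0.4266 and 0.3537, and Clec4a1 was 0.0435. Per kb of the longest transcript, Clec12a in donor cells was at 95.2 rather than 55.7. Depth limits the low values, such as Cd209a and Clec10a in host cells and all members in hippocampus.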
